A study of Mus musculus with 4 samples.

Results

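The values described here are the expression levels on the 2 arrays labelled Apc null, taken from a series of 4 arrays of mouse colon adenoma organoids, and they cover 17097 genes. Organoids are 3D cultures of epithelium, here from tumours of the colon. Both cultures carried the genotype VillinCreERT2 Gata6+/+ Apc fl/fl on a C57BL/6 background. In this model a Cre recombinase that is switched on by tamoxifen is driven by the Villin promoter, which is active in intestinal epithelium, so that the floxed Apc alleles are lost in epithelial cells while Gata6 is left intact. Cultures grew for 7 days with EGF added at 50 ng/ml, and the listed components of that medium include no Wnt, R-spondin or noggin protein. The design text calls the samples of a genotype biological replicates, and the labels give 1 of them batch A and the other batch B without naming separate mice. Culture and batch therefore cannot be told apart, and a difference between the arrays measures only the spread between these 2 samples. The other arrays of the series served only in choosing 1 probe set per gene, and no genotypes were compared.

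APC is the scaffold of the cytoplasmic complex that phosphorylates beta-catenin and marks it for destruction. When APC is lost, beta-catenin accumulates, enters the nucleus and drives target genes through TCF and LEF factors without a Wnt ligand, a state that starts most intestinal adenomas. In the normal colon, Wnt activity is highest at the crypt base, where stem cells and deep crypt secretory cells lie, and falls towards the surface, where absorptive colonocytes, goblet cells, enteroendocrine cells and tuft cells mature.

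Each gene was represented by 1 probe set, the brightest on average in all 4 arrays, and ranked by the mean log2 level of the 2 Apc null arrays. A gene was called bright if it was among the top 10% of genes, which set the limit at 9.41 log2 units. It was called at the floor if its mean lay at or under 4.61 log2 units, the 95th percentile of 79 sensory receptor genes that colon epithelium has no known use for. All other genes were called middling. By these limits 1710 genes were bright (10.0% of all genes), 9583 were middling (56.1%) and 5804 were at the floor (33.9%). The counts given by list in what follows stand against these shares. The sensory receptor genes had a median of 3.58 and ran from 2.84 to 6.66, while the median over all genes was 5.84. Probe sets differ in how strongly they bind their transcript, so a band places a probe set on this array and does not give the amount of 1 mRNA relative to another. The limits cut through a continuous range. The sterol enzyme gene Sqle at 9.41 was just inside the bright band and the goblet and gut factor Foxa3 at 9.37 was just outside it. Likewise the claudin gene Cldn22 at 4.68 was just above the floor limit and the basal cell factor Trp63 at 4.60 was just under it.

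**Figure D1:**
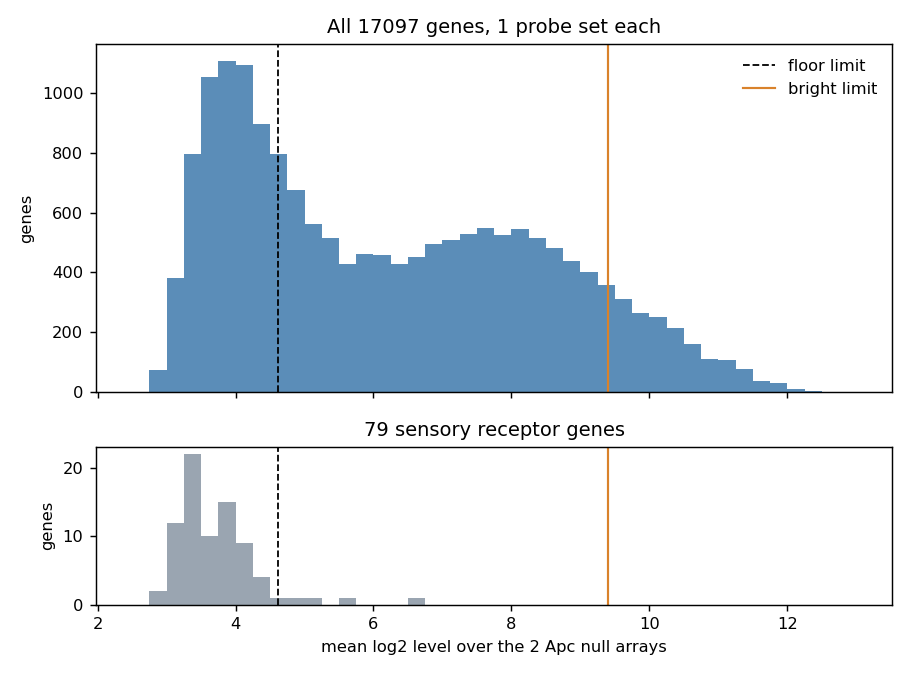
Number of genes by mean log2 level over the 2 Apc null arrays, for all 17097 genes (top) and for 79 sensory receptor genes (bottom). The dashed line is the floor limit at 4.61 and the solid line the bright limit at 9.41, and 4 sensory receptor genes lie above the floor limit.

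The arrays were close to each other. Across genes the levels on array A and array B had a Spearman correlation of 0.982, a description over genes of 2 arrays that share their probes and their normalization. The median absolute difference was 0.18 log2 units over all genes, with 0.20 among bright, 0.29 among middling and 0.10 among floor genes. The same band was found on both arrays for 92.3% of genes, and 0 genes were bright on 1 array and at the floor on the other. A difference of 1 log2 unit or more was seen for 701 genes (4.10%), and of 2 or more for 57. In what follows, a pair of values gives array A first and array B second, in log2 units.

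The 25 brightest named genes were mostly those of translation, glycolysis and the cytoskeleton. The small ribosomal subunit gene Rps2 led at 12.64 and 12.59. Next came the glycolytic enzyme gene Gapdh at 12.37 and 12.41 and the translation elongation factor gene Eef1a1 at 12.36 and 12.37. Among these 25, the genes that mark epithelium rather than cells in general were Sprr2a1, Krt19 and Cldn7. Sprr2a1, which encodes a small proline-rich protein of the epithelial surface, stood sixth at 12.23 and 12.38. The simple epithelial keratin gene Krt19 read 12.14 and 12.08, and the claudin gene Cldn7 read 11.92 and 11.95. The others were Rps6, Rpsa, Rplp0, Rps28, Rpl6 and Rpl4 of the ribosome, the elongation factor gene Eef2, the glycolytic genes Ldha, Eno1b, Pgk1 and Aldoa, the cytoskeletal genes Actb and Tuba1b, the histone gene H3c1, and Ramp2, Vdac1, Hnrnpab, Ywhaz and the class I histocompatibility gene H2-K1, with means between 11.89 and 12.35. Several of these probe sets carry a suffix that marks sequence shared between transcripts. Without probe sets that share sequence, H3c1 was at the floor at 3.95 and Ramp2 at 4.34, so their place among the brightest is uncertain. The next probe set of Ramp2, which carries the mark, was bright at 10.48.

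Which DNA lies at the start of a bright gene is shown with 3 promoters, from 250 bases before the annotated start to 20 bases from it on, read from RefSeq on GRCm38.p6. Rps2 (chr17:24719813-24720082, plus strand) is shown as the brightest gene and as a promoter rich in CpG pairs, and its CG pairs are in capitals. Mmp7 (chr9:7691840-7692109, plus strand), the matrilysin gene and a known Wnt target, and Cldn2 (chrX:139800558-139800827, plus strand), the gene of a claudin that forms cation pores, are shown as bright genes whose promoters hold few CpG pairs. In these the capitals mark the TATA element TATAAA and, in Mmp7, ATCAAAG, which is the reverse strand of the TCF/LEF core CTTTGAT.
Rps2: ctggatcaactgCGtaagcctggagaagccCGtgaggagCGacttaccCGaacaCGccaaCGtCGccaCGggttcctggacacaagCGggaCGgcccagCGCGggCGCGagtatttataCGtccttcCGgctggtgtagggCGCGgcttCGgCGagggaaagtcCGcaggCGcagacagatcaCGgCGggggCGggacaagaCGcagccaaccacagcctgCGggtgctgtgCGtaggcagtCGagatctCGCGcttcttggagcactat
Mmp7: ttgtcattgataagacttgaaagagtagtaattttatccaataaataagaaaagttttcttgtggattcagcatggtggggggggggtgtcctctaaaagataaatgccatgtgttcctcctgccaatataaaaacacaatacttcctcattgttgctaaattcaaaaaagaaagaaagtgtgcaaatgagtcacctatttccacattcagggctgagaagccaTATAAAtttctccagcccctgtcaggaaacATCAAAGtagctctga
Cldn2: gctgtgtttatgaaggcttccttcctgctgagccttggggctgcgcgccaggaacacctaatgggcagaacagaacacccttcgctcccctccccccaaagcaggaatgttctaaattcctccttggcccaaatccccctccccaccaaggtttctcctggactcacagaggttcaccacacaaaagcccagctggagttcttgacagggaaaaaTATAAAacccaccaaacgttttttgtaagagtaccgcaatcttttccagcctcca
The Rps2 stretch holds 31 CG pairs and the Mmp7 stretch 0, while Cldn2 has 5. In Mmp7 the TATAAA begins at position -26 from the start and ATCAAAG begins 4 bases past it, and in Cldn2 the TATAAA begins at position -35. Mmp7 has a further annotated start, whose window is not shown. Over windows of 300 bases, from 250 before to 50 from the start on, 1427 of the 1710 bright genes and 7711 of the 9583 middling genes had at least 1 window. A ratio of observed to expected CpG of at least 0.6 was found in 75.7% of windows of bright genes, 64.6% of windows of middling genes and 35.8% of all promoter windows in the table. TATAAA starting 40 to 20 bases before the start, on the strand of the gene, was found in 1.71% of bright, 1.39% of middling and 1.99% of all windows. CTTTGAT on either strand was found in 2.48%, 2.69% and 3.73%. The windows of all promoters also include genes that were not ranked here. Over the 13605 ranked genes with a window, floor genes among them, the CpG, TATAAA and CTTTGAT shares were 54.5%, 2.32% and 2.99%. The floor genes are not given on their own because fewer than 80% of them had a window. These matches describe letters and show no binding.

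Lineage genes were found in all 3 bands. Of 265 lineage genes measured, 44 were bright (16.6%, against 10.0% of all genes), 133 middling and 88 at the floor (33.2%, against 33.9%). Of 15 markers of epithelium in general, 9 were bright and 0 were at the floor, with a median of 10.10. After Krt19 these were led by the keratin gene Krt8 at 11.79 and 11.66, the adhesion molecule gene Epcam at 11.36 and 11.48, and Krt7 at 11.43 and 11.32. The partner of Krt8 in filaments, Krt18, read 11.24 and 11.07, and the epithelial transcription factor gene Elf3 read 10.49 and 10.81. Vil1, whose promoter drives the Cre of this model and whose product bundles actin in microvilli, was bright at 10.17 and 10.03. The dimmest of the list was Krt20, a keratin of differentiated surface cells, at 5.96 and 5.59. The gene with the widest gap was Klf5, a crypt transcription factor, at 8.40 and 9.73. Every keratin of the list but Krt20 was thus far above the floor on both arrays.

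Transcription factors of gut identity ran from bright to the floor. Hnf4a, a nuclear receptor of gut and liver epithelium, was the brightest of 20 at 10.93 and 11.16, and the caudal homeobox gene Cdx1 followed at 10.36 and 9.39. Its relative Cdx2, which sets intestinal fate, was middling at 9.13 and 9.41. The crypt factors Sox4 and Sox9 were bright at 9.71 and 9.47 and at 9.40 and 9.58. With all probe sets of a gene averaged, Sox4 fell into the middling band at 8.55 and Sox9 at 7.03. Gata6, intact in these cultures, was middling at 8.89 and 8.61, whereas Gata4, its relative of the proximal small intestine, was at the floor at 3.67 and 3.64. Onecut2 at 3.73 and 3.65 and Creb3l3 at 4.46 and 4.58 were the other floor genes of the list. The widest gap was that of Myb, a progenitor factor, at 6.54 and 4.95.

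Hox genes record the position of a tissue along the body axis, and the groups with high numbers mark its posterior end. Hoxb13 was the only bright one of 34, at 9.90 and 9.92. Then came Hoxa9 at 9.08 and 9.34 and Hoxa10 at 8.72 and 8.94, and the other members among the brightest 6 were Hoxa3, Hoxd13 and Hoxa5. Of the 14 genes of groups 9 to 13, 12 were above the floor, with a median of 6.36. Of the 20 genes of groups 1 to 8, 9 were above it, with a median of 4.37. By cluster, 7 of 9 Hoxa, 6 of 10 Hoxb, 2 of 6 Hoxc and 6 of 9 Hoxd genes were above the floor. The dimmest were Hoxd1, Hoxc4, Hoxc8 and Hoxb1, with means from 3.21 to 3.39. Hoxd9 had the widest gap at 6.71 and 8.16.

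Crypt stem cell markers were mostly well above the floor. Of 22 measured, 8 were bright, 13 middling and 1 at the floor, and the median was 8.47. Brightest were Cd24a, a surface marker of crypt base cells that tuft cells share, at 11.41 and 11.49, the ion cotransporter gene Slc12a2 at 11.14 and 11.03, and Prom1, the gene of a membrane glycoprotein, at 10.92 and 11.19. Hopx, a marker of reserve stem cells, read 10.62 and 10.94, the adhesion receptor gene Cd44 read 10.09 and 10.41, and the ErbB inhibitor gene Lrig1 read 9.64 and 9.77. Lgr5, the R-spondin receptor gene that defines cycling crypt base stem cells, was middling on array A at 9.16 and bright on array B at 9.72. Its mean over all its probe sets was 7.88, which is middling. Ascl2, the transcription factor that maintains these cells, was middling at 8.15 and 7.90, as was Smoc2 at 8.79 and 8.80. The exception in the list was Olfm4, a secreted glycoprotein gene of small intestinal stem cells, at the floor with 3.72 and 3.59. Msi1 at 5.75 and 5.83, Aqp1 at 6.21 and 5.43 and Tert at 5.58 and 7.30 were the next dimmest. Tnfrsf19, a TNF receptor family gene under Wnt control, had the widest gap at 5.76 and 7.85.

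Absorptive cell genes spanned the whole range. In bulk RNA, fewer cells of a type and less RNA per cell cannot be told apart. Of 39 colonocyte and enterocyte markers, 8 were bright, 19 middling and 12 at the floor. The bright set held Ceacam1, an adhesion molecule gene, at 11.84 and 11.82, and the cytosolic carbonic anhydrase genes Car2 at 11.35 and 11.46 and Car1 at 10.37 and 11.50. It also held Plac8 at 11.06 and 11.01, the mucin gene Muc13 at 10.66 and 10.96, and the flagellin-binding Lypd8 at 10.21 and 10.38. Without probe sets that share sequence, Ceacam1 was middling at 8.23. The water channel gene Aqp4 was bright too, at 10.48 and 9.56. The share of the list at the floor was 30.8%, against 33.9% of all genes, and it included several transport genes. The chloride-bicarbonate exchanger gene Slc26a3 read 4.50 and 4.10, the water channel gene Aqp8 4.48 and 4.41, and the membrane carbonic anhydrase gene Car4 4.29 and 4.26. Among the dimmest were also Tmigd1 at 3.20 and 3.07, Alpi, the intestinal alkaline phosphatase gene, at 3.60 and 3.91, and the sodium-hydrogen exchanger gene Slc9a3 at 3.80 and 3.88. Of the 3 subunit genes of the epithelial sodium channel, Scnn1b was at the floor at 3.98 and 3.97. Scnn1g was just above it at 4.70 and 4.68, and Scnn1a was middling at 5.43 and 5.76. The widest gap was that of the peptidase gene Dpp4, at 3.93 and 5.17.

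Genes of other gut regions lay mostly in the floor and middling bands. Of 18 small intestine genes, 11 were at the floor (61.1%, against 33.9% of all genes). Among them were the amino acid transporter gene Slc6a19 at 3.39 and 3.28, the bile acid transporter gene Slc10a2 at 3.73 and 3.77 and Fabp6 at 4.38 and 4.23. Mgam, the maltase-glucoamylase gene of the brush border, was the only bright one at 10.22 and 10.50. Ada, the adenosine deaminase gene, followed at 8.74 and 8.71 and the sodium-glucose transporter gene Slc5a1 at 8.69 and 8.13. Of 20 gastric and foregut genes 0 were bright, 11 middling and 9 at the floor (45.0%, against 33.9% of all genes). The mucin gene Muc1 was the brightest at 9.57 and 8.95, and the foregut factor Sox2 the dimmest at 2.96 and 2.98. The gastric mucin gene Muc5ac read 5.13 and 4.90.

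Secretory lineages differed in how many of their genes stood above the floor. Of 24 goblet and deep crypt secretory markers, 2 were bright (8.33%, against 10.0% of all genes), 16 middling and 6 at the floor (25.0%, against 33.9%). The trefoil peptide gene Tff3 read 11.42 and 11.26, and Reg4, a lectin gene of deep crypt secretory cells, 9.63 and 10.53. Spink4 at 8.99 and 9.81, Agr2, which assists mucin folding, at 8.89 and 9.15, and the mucus protein gene Fcgbp at 9.23 and 8.72 were in the upper middling range. Atoh1, the master factor of secretory fate, read 8.32 and 7.04, the widest gap of the list. Other goblet products were dim, with Zg16 at 4.02 and 3.85, Retnlb at 3.62 and 3.68 and Clca1 at 5.33 and 4.39. The deep crypt secretory marker Kit was at the floor with 3.86 and 3.83. The list is thus uneven, with Tff3 and Reg4 at the top of the range and Zg16 and Retnlb at its bottom.

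Enteroendocrine markers had 0 bright genes of 25, with 15 middling and 10 at the floor. Ddc, a decarboxylase gene of serotonin synthesis, was the brightest at 8.04 and 7.42, and the endocrine progenitor factor Neurog3 read 5.85 and 5.05. Chga, the chromogranin gene of the mature cells, read 4.87 and 5.24. The hormone genes Nts, Gcg and Cck were at the floor, with means between 3.39 and 3.57. Other hormone genes were middling, with means of 5.93 for Ghrl, 5.44 for Sst and 5.04 for Gip. The widest gap was that of Insm1, a factor of endocrine differentiation, at 6.73 and 4.49. Tuft cell markers were the dimmest of the gut secretory sets, with 15 of 20 at the floor (75.0%, against 33.9% of all genes). Its only bright gene was Cd24a, which is also on the stem cell list. The defining tuft genes Dclk1 at 4.36 and 4.35, Pou2f3 at 4.12 and 3.89, Trpm5 at 4.23 and 4.36 and Il25 at 3.88 and 3.88 were at the floor on both arrays.

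Paneth cells belong to the small intestine. Of 12 of their markers, 3 were bright (25.0%, against 10.0% of all genes), 3 middling and 6 at the floor (50.0%, against 33.9%). Nupr1, a stress-responsive gene, read 10.85 and 11.23, the lysozyme gene Lyz2 10.36 and 11.14, and Mmp7 9.85 and 10.70. The Paneth lysozyme gene Lyz1 read 5.57 and 5.63, and because Lyz1 and Lyz2 are near copies their probe sets may share signal. At the floor were 6 of 12, among them the antimicrobial lectin genes Reg3g at 3.73 and 3.64 and Reg3b at 3.88 and 3.78, and the defensin gene Defa21 at 4.14 and 3.99. Genes of fetal and regenerating epithelium included 8 bright of 19, with a median of 8.62. They were led by the D-type cyclin gene Ccnd2 at 11.69 and 11.94, Krt4 at 11.19 and 11.18 and Ly6e at 11.09 and 11.12. Clu, the clusterin gene that marks revival stem cells, was bright at 10.48 and 11.03, and Anxa1 at 10.58 and 10.27. The EGF family ligand gene Ereg at 3.42 and 3.49, Igf2 at 4.24 and 4.26 and the RNA-binding protein gene Igf2bp1 at 4.24 and 4.38 were at the floor. Il33, an alarmin gene, had the widest gap at 6.33 and 8.09.

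Markers of cells outside the gut epithelium were mostly at the floor. Of 106 measured, 1 was bright (0.943%, against 10.0% of all genes), 42 were middling and 63 were at the floor (59.4%, against 33.9%). The bright one was Fbln1, an extracellular matrix gene on the fibroblast list, at 9.84 and 9.75. It was middling at 7.62 without probe sets that share sequence and at 7.56 with all its probe sets averaged. The other fibroblast genes ranged from 3.22 to 7.58 in their means, with the collagen genes Col1a1 at 4.17 and 4.34 and Col1a2 at 3.67 and 3.78 and the receptor gene Pdgfra at 3.38 and 3.36. The pan-leukocyte gene Ptprc read 3.07 and 3.12, the endothelial gene Pecam1 4.65 and 4.43, and the smooth muscle gene Actg2 4.17 and 4.11. By list, 15 of 19 fibroblast, 13 of 23 immune, 10 of 14 endothelial, 5 of 9 smooth muscle, 7 of 11 neuron and glia and 7 of 11 liver markers were at the floor, and all 4 red blood cell markers were middling with means from 5.02 to 6.50. Above the floor among the immune markers were the macrophage genes Cd14 at 7.36 and 7.28 and Cd68 at 5.92 and 7.57, and the T cell gene Cd3d at 5.26 and 5.22, and the endothelial gene Vwf read 5.14 and 5.49. The floor band thus held most but not all of these markers. Of 15 squamous markers, 0 were bright, 9 middling and 6 at the floor. Most of this list was thus middling, but so were most genes on the array (56.1%, with 33.9% at the floor). Sprr2a1 and the keratin gene Krt4, both bright as given above, are not on this list. Lor, a gene of the cornified skin layer, read 9.72 and 8.64, Sprr1a read 8.59 and 8.79, and Krt6a read 7.46 on array A and 4.59 on array B. Of 11 liver markers, the transferrin gene Trf was the brightest at 8.10 and 9.95, and the albumin gene Alb was at the floor at 4.29 and 4.42.

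**Figure D2:**
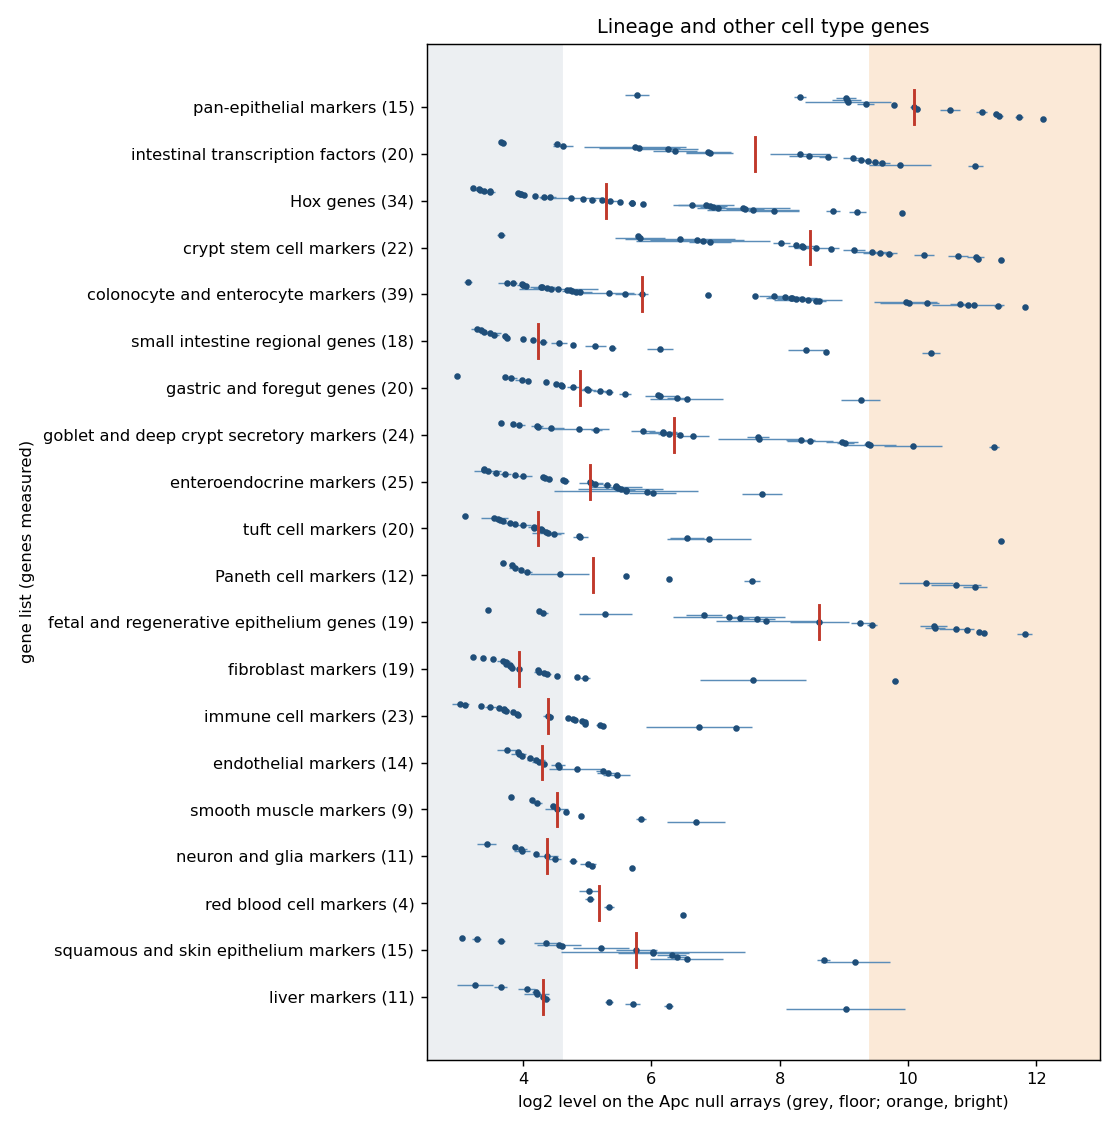
Log2 levels of the lineage and other cell type genes on the Apc null arrays, with 1 row per gene list, a point for each gene's mean, a blue line from its lower to its higher array and a red bar at the list median. The epithelial and crypt stem cell lists lie to the right with medians of 10.10 and 8.47, and the fibroblast, immune and tuft lists lie mostly in the grey floor band.

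Signalling genes as a family lay near the background in the bright band and below it at the floor. Of 260 measured, 32 were bright (12.3%, against 10.0% of all genes), 167 middling and 61 at the floor (23.5%, against 33.9%).

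Genes of secreted Wnt ligands were mostly at the floor. Of 19 Wnt ligand genes, 0 were bright, 7 middling and 12 at the floor (63.2%, against 33.9% of all genes). The brightest were Wnt7b at 5.68 and 6.41 and Wnt6 at 5.89 and 6.03. Wnt3, which Paneth cells make in the small intestine, was at the floor at 4.42 and 4.07, and Wnt5a was the dimmest at 3.16 and 3.15. The R-spondin genes, whose products boost Wnt receptors and come from stroma, were at the floor for Rspo1, Rspo2 and Rspo3, and Rspo4 read 5.21 and 5.34. Wls, the carrier needed to secrete any Wnt, was bright at 9.57 and 9.88. Its mean over all probe sets was middling at 8.767, just under the bright limit of 8.774 in that setting. Among receptors, 7 of 10 Frizzled genes were middling and 3 at the floor, led by Fzd5 at 7.99 and 7.09. The widest gap in this list was that of Fzd6, at 7.22 and 6.19. The co-receptor genes Lrp5 at 8.68 and 9.02 and Lrp6 at 7.56 and 7.70 were middling, and so was Lgr4 at 8.57 and 8.13. Ryk, a further Wnt receptor gene, was bright at 9.85 and 9.63 but read 5.57 without probe sets that share sequence.

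Inside the cell, 8 of 32 genes of the destruction complex and the TCF factors were bright, 23 middling and 1 at the floor. Ctnnb1, the beta-catenin gene, read 11.22 and 11.28. The kinase gene Csnk1d was higher at 11.43 and 11.36, but read 8.03 without probe sets that share sequence. The corepressor gene Tle5 at 10.32 and 10.45, the tankyrase gene Tnks2 at 10.36 and 10.33, the ubiquitin ligase gene Fbxw11 at 10.32 and 10.33 and the kinase gene Csnk1a1 at 9.98 and 10.20 completed the brightest 6. Gsk3b, the kinase that phosphorylates beta-catenin, read 9.42 and 9.77. The scaffold Axin1 was middling at 8.83 and 8.50. Apc itself read 8.35 and 8.34. Whether its probes lie inside the deleted stretch cannot be read from the files, so this level is no check of the deletion. Of the TCF family, Tcf7l2, the main partner of beta-catenin in gut epithelium, was middling at 8.83 and 9.39, Tcf7l1 was lower at 5.16 and 5.97, and Lef1 was at the floor at 3.82 and 4.17. The widest gap was that of the kinase gene Csnk2a1, at 6.51 and 8.08.

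Of 37 Wnt target and feedback genes, secreted Wnt inhibitors among them, 10 were bright (27.0%, against 10.0% of all genes), with a median of 8.02. Ccnd1, the cyclin D1 gene, led at 11.26 and 11.32, and the list also held Mmp7, Cd44 and Cdx1, described above. Myc, a driver of growth, read 9.79 and 9.83, and Birc5, the survivin gene, 10.26 and 9.18, the widest gap of the list. Axin2, the feedback scaffold used as a standard readout of Wnt activity, was middling on array A at 9.30 and bright on array B at 9.83. The feedback ubiquitin ligase genes Rnf43 at 8.22 and 8.92 and Znrf3 at 6.59 and 7.24 were middling, and so was the sorting receptor gene Ephb3 at 8.27 and 8.47. Some feedback inhibitors of Wnt were well below these. Notum, the deacylase that inactivates Wnt, read 5.66 and 5.57, Nkd1 5.93 and 6.11, and Sp5 5.99 and 6.51. Of 7 SFRP and DKK inhibitor genes, 0 were bright and 4 were at the floor, among them Sfrp1 at 4.03 and 3.83 and Dkk1 at 3.75 and 3.73. Wif1 was the dimmest of the whole list at 3.04 and 3.15. The list of Wnt target and feedback genes therefore spans nearly the whole range of the array, from Ccnd1 to Wif1.

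BMP signals act against stem cell identity in the crypt, and TGF-beta signals restrain epithelial growth. Of 53 genes of these pathways, 2 were bright (3.77%, against 10.0% of all genes), 36 middling and 15 at the floor (28.3%, against 33.9%). Of 12 BMP and GDF ligand genes, 0 were bright, 7 middling and 5 at the floor (41.7%, against 33.9% of all genes). Bmp8b was the brightest of them at 8.64 and 8.62, and Bmp2 read 5.96 on array A and 7.96 on array B, the widest gap. Bmp4 at 4.79 and 4.70 and Bmp7 at 4.80 and 4.81 were just above the floor limit. Among receptors, Tgfbr2 was the brightest at 9.32 and 9.23, the BMP receptor gene Bmpr2 read 8.18 and 8.38, and Bmpr1a was at the floor at 3.65 and 3.70. The signal carriers were higher, and 0 of 8 SMAD genes were at the floor. Smad4, the shared partner of both pathways, was bright at 9.94 and 9.79, Smad3 read 8.96 and 9.52, and Smad1, which carries BMP signals, read 8.53 and 8.31. The response genes Id1 at 7.85 and 8.78, Id2 at 7.99 and 8.55 and Id3 at 7.15 and 8.20 were each higher on array B. Of 8 antagonist genes, 5 were at the floor, among them Nog at 4.40 and 4.49 and Chrdl1 at 3.75 and 3.88.

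Notch signals between neighbouring cells keep progenitors from the secretory fate. All 4 receptor genes were middling, led by Notch1 at 8.39 and 8.52 and Notch2 at 7.67 and 7.92, and Notch3 showed the widest gap of the list at 5.63 and 7.66. All 4 ligand genes were middling too, from Jag1 at 7.83 and 8.71 and Dll4 at 6.62 and 5.99 to Dll1 at 6.03 and 5.50 and Dll3 at 4.94 and 4.90. The protease parts that release the receptor were brighter. Psenen, a gamma-secretase subunit gene, read 10.69 and 10.74, and the sheddase genes Adam10 and Adam17 read 9.99 and 10.18 and 9.79 and 9.79. Of 8 Hes and Hey genes, 5 were at the floor (62.5%, against 33.9% of all genes). Hes1, the chief Notch target in the crypt, was middling at 7.72 and 7.37, Hes6 was bright at 9.78 and 10.12, and Hey2 was at the floor at 2.94 and 2.93.

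EGF was supplied in the medium, and its receptor gene Egfr was middling at 8.65 and 8.64. Of the other ErbB receptors, Erbb3 was bright at 9.62 and 9.89, Erbb2 read 7.75 and 7.99, and Erbb4 was at the floor at 3.59 and 3.63. Of 10 ligand genes of the family, 6 were at the floor (60.0%, against 33.9% of all genes), including Egf itself at 4.14 and 4.02. Those above it were led by Hbegf at 8.58 and 8.88, Tgfa at 7.85 and 8.20 and Btc at 7.79 and 8.23. Downstream, the kinase genes Map2k2 at 9.92 and 9.62 and Map2k1 at 9.12 and 9.74 and the GTPase gene Nras at 10.57 and 10.18 were bright by their means. Without probe sets that share sequence, Nras was middling at 8.73. With all probe sets of a gene averaged, Map2k2 was middling at 8.48, and Map2k1 was middling on array A alone. Sos1, an exchange factor for Ras, was at the floor at 3.06 and 3.30. Etv4, a transcription factor gene that the pathway induces, had the widest gap at 6.45 and 8.02. All told, 5 of 32 genes of the list were bright (15.6%, against 10.0% of all genes) and 8 at the floor (25.0%, against 33.9%).

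Hedgehog genes showed a ligand without the Gli factors. Ihh, the ligand that colon epithelium sends to the stroma, was middling at 8.98 and 8.28, and the transducer gene Smo read 9.38 and 9.26. All 3 Gli genes were at the floor, with Gli1, the readout of the pathway in receiving cells, at 4.21 and 3.78. In the Hippo pathway, the growth coactivator gene Yap1 was bright at 9.47 and 9.46 and its relative Wwtr1 middling at 6.94 and 6.76. All 4 Tead genes, whose products bind DNA for YAP, were middling, led by Tead2 at 9.19 and 8.74. The YAP targets Ccn2 at 7.00 and 8.58 and Ccn1 at 7.93 and 7.36 differed in opposite directions between the arrays, and Ccn2 had the widest gap of the list.

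Junction genes ranged from bright to the floor. Of 133 measured, 28 were bright (21.1%, against 10.0% of all genes), 61 middling and 44 at the floor (33.1%, against 33.9%). Among 21 claudin genes, whose products set the permeability of tight junctions, 5 were bright and 10 at the floor. After Cldn7, the sealing claudin genes Cldn3 at 10.94 and 10.70 and Cldn4 at 10.48 and 10.44 and the pore-forming Cldn2 at 10.62 and 10.53 were well inside the bright band. Cldn12 was bright at 9.45 and 9.61, but read 6.84 without probe sets that share sequence, and Cldn15 was middling at 9.27 and 9.43. Cldn1 at 3.86 and 3.57, Cldn8, a claudin of the distal colon, at 3.99 and 3.91, and the gastric Cldn18 at 4.64 and 4.52 were at the floor. The other middling members, Cldnd1, Cldn23, Cldn14, Cldn13 and Cldn22, had means from 4.68 to 8.36. Other tight junction genes were mostly middling, 22 of 25. Lsr, the angulin gene of tricellular contacts, read 10.36 and 10.23, the polarity kinase gene Prkci 10.30 and 9.75, occludin, Ocln, 9.39 and 8.99, and the scaffold Tjp1 9.04 and 8.96. Jam2, a junctional adhesion gene of endothelium, was at the floor at 4.23 and 4.36.

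Adherens junction genes had 8 bright members of 20 and 6 at the floor. Cdh1, the E-cadherin gene, was bright at 10.11 and 10.19, with its catenin partners Ctnnd1 at 10.95 and 11.12 and Ctnna1 at 10.85 and 10.75. The neural and mesenchymal cadherin genes Cdh2 at 3.65 and 3.69 and Cdh11 at 3.38 and 3.25 were at the floor, and so were the catenin genes Ctnna2 and Ctnnd2. Cdh3, the P-cadherin gene, was low in the middling band with a mean of 4.98. Of the desmosome genes, Dsp, the desmoplakin gene, led at 11.44 and 11.72, and the cadherin gene Dsg2 at 10.27 and 10.40 was bright while Dsc2 was middling at 9.23 and 9.56. The epidermal forms Dsg1a at 3.03 and 2.84, Dsg1b at 3.17 and 3.00, Dsc1 at 4.59 and 4.30 and Dsc3 at 4.47 and 4.41 were at the floor. Gap junction genes were dim, with 8 of 14 at the floor and Gja1, a connexin gene, the only bright one at 9.51 and 9.35.

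At the basal side, 8 of 40 integrin and basement membrane genes were bright and 15 at the floor. The integrin genes of hemidesmosomes were both bright, Itga6 at 10.11 and 10.33 and Itgb4 at 10.16 and 10.71. Itgb1 was bright at 10.66 and 10.68, although its mean over all probe sets was 6.97, and the tetraspanin gene Cd151 read 10.98 and 10.91 but 7.48 without probe sets that share sequence. The laminin beta chain gene Lamb3 read 10.18 and 10.60, and its alpha chain partner Lama3 had the widest gap at 8.24 and 9.37. Without probe sets that share sequence, Lama3 was at the floor at 4.25. Col4a1 was bright at 10.06 and 10.30, while Col4a3 to Col4a6 were at the floor. Leukocyte and mesenchymal integrin genes were dim, with Itgb2 at 4.05 and 4.08, Itga4 at 4.08 and 3.95 and Itga5 at 3.41 and 3.61.

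**Figure D3:**
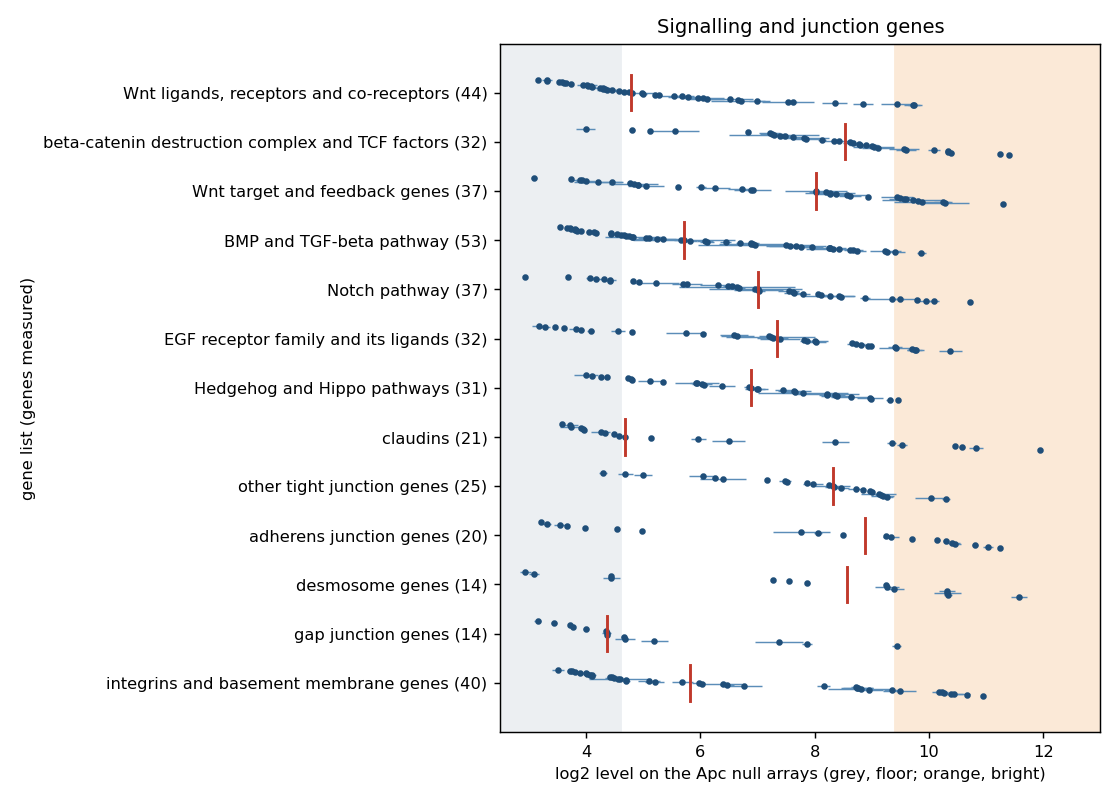
Log2 levels of signalling and junction genes on the Apc null arrays, drawn with 1 row per list, a point for each gene's mean, a blue line between its arrays and a red bar at the list median. The list of Wnt ligands, receptors and co-receptors has a median of 4.78 near the floor limit, the destruction complex list a median of 8.53, and 10 of the 21 claudin points lie in the floor band.

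Metabolic genes were the brightest of the 4 families of interest. Of 291 measured, 136 were bright (46.7%, against 10.0% of all genes), 130 middling and 25 at the floor (8.59%, against 33.9%). Enzymes that all cells use make up much of this family, and this share was not compared with that in other cultures.

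Glycolysis genes included some of the brightest on the array. Of 31 genes, 13 were bright, 13 middling and 5 at the floor, led by Gapdh and by Ldha, the lactate dehydrogenase gene, at 12.11 and 12.18. Pgk1 read 11.85 and 12.11, Aldoa 11.78 and 12.10, and the pyruvate kinase gene Pkm 11.58 and 11.67. Pfkl, a phosphofructokinase gene, read 10.95 and 11.21 but 6.41 without probe sets that share sequence. The main glucose transporter gene of proliferating cells, Slc2a1, was bright at 10.01 and 10.48, and the lactate exporter gene Slc16a3 at 9.76 and 10.79. Hk1 was bright at 9.85 and 10.67 and Hk2 middling at 8.67 and 9.22. Forms of other tissues were at the floor, such as the neuronal Eno2 at 3.49 and 3.44, the liver transporter gene Slc2a2 at 3.67 and 3.78 and the testis Ldhc at 4.47 and 4.34. On array B, 23 of the 31 genes were higher than on array A, with a median difference of 0.11, and Aldoc had the widest gap at 8.25 and 9.68. Without probe sets that share sequence, Aldoc was at the floor at 4.5128, where the floor limit was 4.5134.

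The mitochondrial arms were bright too. Of 34 genes of pyruvate dehydrogenase and the citric acid cycle with their neighbours, 16 were bright, led by the malate dehydrogenase gene Mdh2 at 11.19 and 11.05 and the citrate synthase gene Cs at 11.07 and 11.06. At the floor were Pdk4, a kinase gene induced by fasting, at 3.26 and 3.14, and the gluconeogenic genes G6pc at 3.67 and 3.68, Pck1 at 4.03 and 3.61 and Fbp1 at 3.96 and 4.05. Their relatives were higher, with Fbp2 bright at 10.44 and 9.80 and Pck2 middling at 9.02 and 9.64. Of 55 oxidative phosphorylation genes, 48 were bright and 0 at the floor, with a median of 10.62. The cytochrome c oxidase genes Cox6a1 at 11.72 and 11.73 and Cox7a2 at 11.85 and 11.57 led the list. By complex, 20 of 22 NADH dehydrogenase genes, 9 of 14 cytochrome c oxidase genes and 10 of 10 ATP synthase genes were bright. The middling cytochrome c oxidase genes were the 5 forms of muscle, lung or testis, Cox7a1, Cox6a2, Cox6b2, Cox8b and Cox4i2. Cox6b2 had the widest gap at 4.66 and 7.14. Without probe sets that share sequence, the ATP synthase gene Atp5g1 was at the floor at 3.65 and Uqcrq, a gene of the cytochrome bc1 complex, read 4.57.

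Lipid synthesis was well represented. Of 19 cholesterol synthesis genes, 10 were bright and 0 at the floor, led by the demethylase gene Cyp51 at 10.58 and 10.58 and the farnesyl diphosphate synthase gene Fdps at 10.55 and 10.30. Insig1, which senses sterols, read 10.14 and 10.27, and the dimmest was the synthase gene Hmgcs1 at 5.50 and 6.13. Of 22 genes of fatty acid synthesis and storage, 5 were bright and 2 at the floor. The elongase gene Elovl5 read 10.98 and 11.04 and Acly, which makes cytosolic acetyl-CoA, 10.58 and 10.44, while Fasn, the fatty acid synthase gene, was just outside the bright band at 9.41 and 9.21. Fatty acid oxidation genes had 6 bright of 23. They were led by Acsl5, which activates fatty acids, at 10.96 and 11.01, whereas Cpt1a, the gate into mitochondria, was middling at 7.59 and 7.55 and the regulator Ppara was at the floor at 4.16 and 4.18.

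Nucleotide synthesis and redox genes had no member at the floor. Of 26 nucleotide, serine and one-carbon genes, 12 were bright, among them Pgd of the pentose phosphate pathway at 11.26 and 11.32 and the purine gene Paics at 10.56 and 10.47. The brightest, the transketolase gene Tkt at 11.83 and 11.87, read 4.19 without probe sets that share sequence. Of 34 glutathione and redox genes, 18 were bright. Gpx2, the glutathione peroxidase gene of gut epithelium, led at 11.78 and 11.59, followed by thioredoxin, Txn1, at 11.62 and 11.69, and Gstp1 at 11.42 and 11.51. The quinone reductase gene Nqo1 was low in the middling band at 5.69 and 5.86. Of 25 genes of amino acid transport, glutamine and polyamines, 6 were bright, including the aminotransferase gene Got2 at 10.86 and 10.56 and the asparagine synthetase gene Asns at 10.14 and 10.27. The polyamine gene Srm had the widest gap there at 9.92 and 8.82.

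Genes that handle butyrate, bile acids and foreign compounds lay near the background. Of 27 measured, 4 were bright (14.8%, against 10.0% of all genes), 13 middling and 10 at the floor (37.0%, against 33.9%), with a median of 6.14 against 5.84 over all genes. Acsm3, a medium-chain acyl-CoA synthetase gene, was bright at 9.94 and 9.73, and the exporter gene Abcc1 at 9.45 and 10.03. Butyrate enters colonocytes by Slc16a1, middling at 9.11 and 8.94, and by Slc5a8, at the floor with 3.53 and 3.55. The drug exporter gene Abcg2 at 3.80 and 4.18 and the detoxifying Cyp1a1 at 3.50 and 3.62 were at the floor. The bile acid receptor gene Nr1h4 read 6.44 and 5.18.

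**Figure D4:**
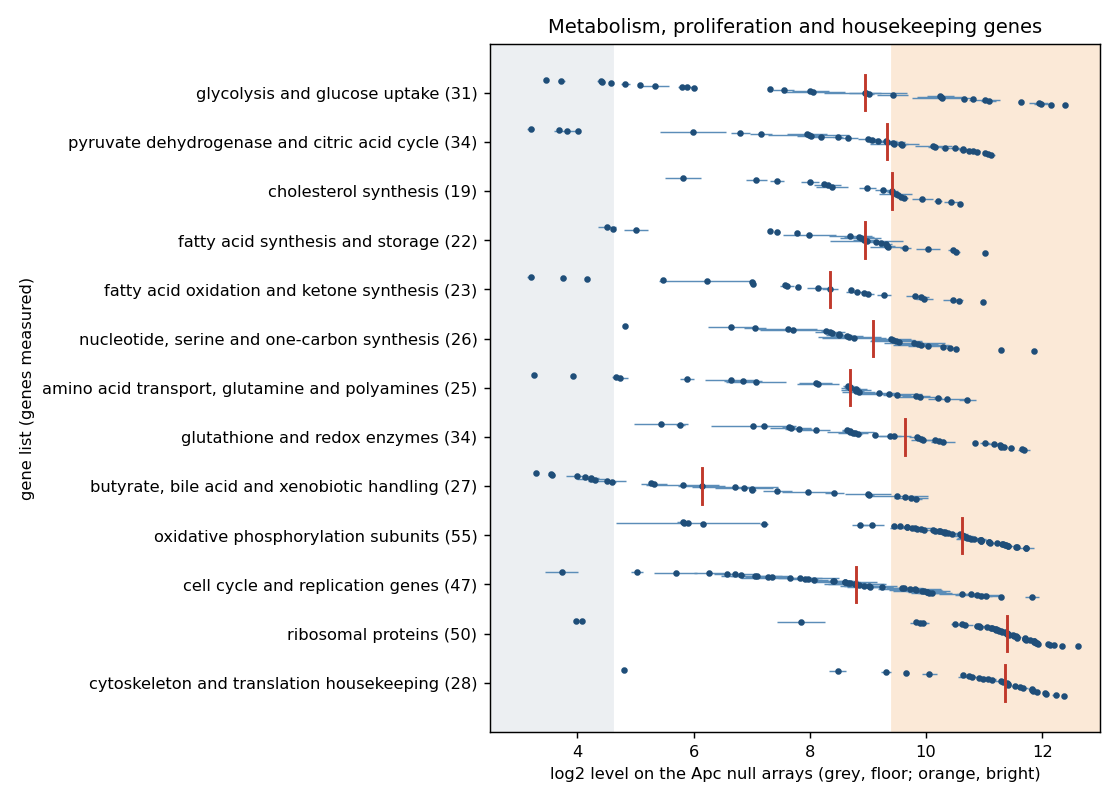
Log2 levels of metabolic, proliferation and housekeeping genes on the Apc null arrays, drawn as 1 row per list with a point for each gene's mean, a blue line between its arrays and a red bar at the list median. The oxidative phosphorylation and ribosomal lists lie mostly in the bright band, with medians of 10.62 and 11.39, while the butyrate, bile acid and xenobiotic list is centred at 6.14.

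Proliferation genes were plainly present. Of 47 cell cycle and replication genes, 18 were bright, 28 middling and 1, the cyclin gene Ccne2, at the floor at 4.01 and 3.45. The proliferation marker Mki67 read 10.16 and 9.86, and the replication clamp gene Pcna 11.02 and 10.53. The cell cycle inhibitor gene Cdkn1a was bright at 10.74 and 11.31, whereas Cdkn2a, the gene of Ink4a and Arf, was low at 5.13 and 4.92. For comparison, 47 of 50 ribosomal protein genes were bright, and the 2 at the floor, Rpl3l and Rpl39l, are forms of muscle and testis. Of 28 housekeeping genes, 25 were bright.

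The cell cycle list was also where the arrays differed most as a group. Over all genes the median difference, array B minus array A, was -0.05, and 40.4% of genes were higher on array B. Over the 47 cell cycle genes it was -0.57, with 7 higher on array B, and over the 26 nucleotide, serine and one-carbon genes it was -0.54, with 5 higher. All 6 replicative helicase genes were higher on array A, with a median difference of -0.98, as in Mcm5 at 11.27 and 10.49 and Mcm4 at 9.15 and 8.05. The licensing gene Cdc6 had the widest gap of the list at 8.50 and 6.81. Some inhibitors went the other way, with Cdkn1a as above, Cdkn1b at 9.06 and 9.43 and Cdkn2b at 7.96 and 8.83, and so did Mdm2, the ubiquitin ligase gene that restrains p53, at 9.36 and 10.28. Not all inhibitors did, as Cdkn2a, given above, was lower on array B. With 1 array per batch there is no replicate check of these differences.

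Single genes with the widest gaps above the floor were mostly higher on array B. The defensin gene Defa31, an antimicrobial peptide gene of Paneth cells, read 8.96 and 5.65 from a probe set that shares sequence with its relatives. Krt6a was the other of the 10 that was higher on array A. The remaining 8 were higher on array B. Sema5a, a semaphorin gene, read 3.57 and 6.88, the iron reductase gene Cybrd1 4.30 and 7.40, and the IGF binding protein gene Igfbp4 7.55 and 10.43. The profilin gene Pfn2 read 5.61 and 8.65, Pdlim4 5.63 and 8.67 and Prr15 5.88 and 9.04, and Cpq was higher by 2.86. Tet2, whose product oxidises methylated cytosine, read 5.93 and 8.77. Defa31 is not on the gene lists, and Defa21, the listed Paneth defensin gene that was measured, was at the floor on both arrays.

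**Figure D5:**
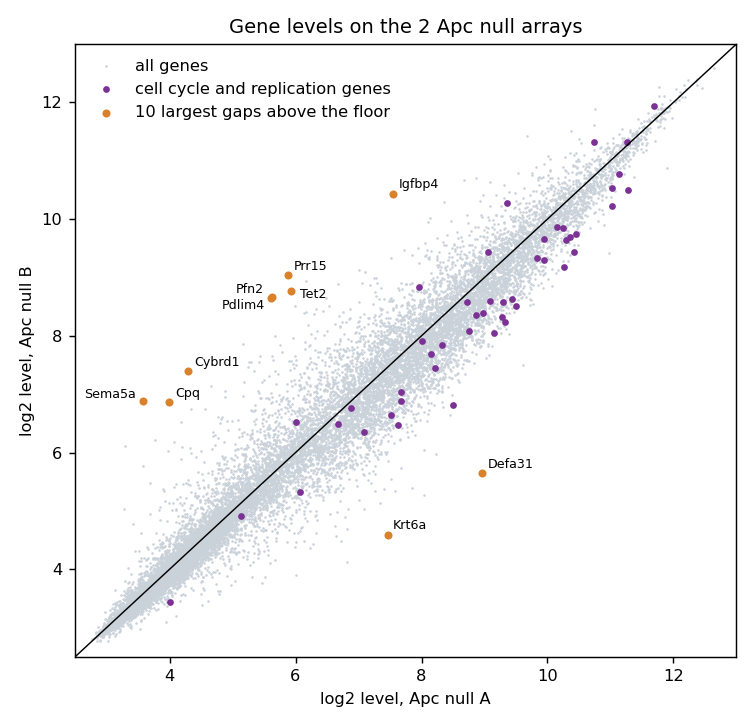
Log2 level of each gene on Apc null array A (horizontal) and array B (vertical), with all 17097 genes in grey, the cell cycle and replication genes in purple and the 10 genes above the floor with the widest gaps in orange, and a line where both arrays are equal. Of the 47 cell cycle genes, 7 lie above the line, and of the 10 widest gaps 8 lie above it and Defa31 and Krt6a below it.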

How the data were processed

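Expression was measured on 4 Affymetrix mouse arrays with 1 biotin label, of which the 2 labelled Apc null are described here. Per the labels' protocols, total RNA with an integrity number of at least 9 was used, 25 ng was amplified, and 8 µg of the cDNA went to fragmentation and labelling. The deposited values are log2 levels of probe sets. Per the submitters' processing notes the authors used RMA and the affy package, with versions not given in the sources used here. This method, RMA, subtracts background, forces the probe signals of all arrays to 1 distribution and condenses several probes into 1 value, which squeezes low levels together. There were no detection calls here, and the genome build behind the probe sets is not given in the sources used here. The number of arrays limits the precision, and array medians were 4.91 for A and 5.04 for B.

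Of 45141 probe sets, 104 controls were left out. The platform annotation gave 1 gene to 28898, several to 551, from which no gene was named, and none to 15588. Symbols of 28689 were checked by Entrez identifier against RefSeq genes of GRCm38.p6 and 0 changed. Promoter sequences came from the same RefSeq build and are unrelated to the build of the array. For 7180 genes with more than 1 probe set, the next brightest lay in the same band for 73.5%. Of 1050 such bright genes, 55 had the next one at the floor. Choosing the brightest probe set favours high levels, and sets with suffix x, s or a share sequence between transcripts.

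The members, the 46 gene lists and the limits were chosen with earlier results of these data known, and a few alias entries were merged or removed after the files were read. Of 1307 listed genes, 1142 were measured, and the others, such as Muc2 and Ephb2, were not analysed here. The genes named are the 25 brightest, leaving out predicted and clone names, then up to 6 brightest and up to 4 dimmest members of a list with its widest gap between arrays and further members by their role, and the 10 genes above the floor with the widest gaps. Results are descriptions with no test. Alternatives were the mean of all probe sets, no probe sets with shared sequence, the brightest probe set over the Apc null arrays alone, other limits for both bands, and each array alone. The accuracy of the bands on these arrays was not tested. Work was done in Python 3.11.15 with numpy 2.4.6, pandas 2.3.3, scipy 1.17.1 and matplotlib 3.10.9. No per-sample column was left unused (0 columns).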

Additional observations from a re-analysis of the deposited data

How the results depend on the processing

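No paired analysis was possible because the results come from no test. The agreement of the 2 arrays cannot be given with 1 of them left out. With the top 20% of genes called bright, 3420 genes were bright, with 69 lineage, 65 signalling, 49 junction and 4 other cell type genes among them. With the floor set at the 99th percentile of the sensory receptor genes, 134 lineage, 104 signalling and 38 metabolic genes were at the floor. The 1 bright gene of other cell types became 2 with the mean of all probe sets, 0 without probe sets of shared sequence, and 2 to 2 with either array left out, Lor joining on array A alone and Trf on array B alone. With the mean of all probe sets the 2 were Lor and Trf, and Fbln1 was middling at 7.56. All other counts of bright and floor genes, by family and over all genes, stayed within 1.5 times under the 8 alternatives. Of 1158 named genes, 140 changed band with the mean of all probe sets, 0 of them between bright and floor. Rps6, Mcm5, Got2, Csnk1a1 and Tnks2 were among those that went from bright to middling in that setting. Without probe sets of shared sequence, 965 remained and 98 changed band, with H3c1, Ramp2, Tkt, Rps20 and Atp5g1 going from bright to the floor. Choosing probe sets over the Apc null arrays alone moved 1 gene, and 62 or 45 genes moved without array A or array B. Dim genes are limited by the floor of the array, under which levels have no order.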

Other observations

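Some of the brightest genes outside the lists, singled out after their values were seen, are known from gut epithelium. The galectin gene Lgals4 read 11.71 on array A and 11.73 on array B. Gpa33, which encodes a surface antigen of intestinal epithelium, read 11.42 and 11.45, and the tetraspanin gene Tspan8 read 11.31 and 11.37. Pglyrp1, whose product binds bacterial cell walls, read 11.61 and 11.71. Both classical class I histocompatibility genes were bright, with H2-K1 at 11.81 and 11.96 and H2-D1 at 11.31 and 11.52, and the next probe set of H2-D1 was middling at 7.07.

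The labels name no sex for the mice. Xist, the RNA of the inactive X chromosome, was at the floor on both arrays at 3.68 and 3.72. The Y-linked genes Eif2s3y at 8.37 and 8.68, Kdm5d at 7.09 and 7.85 and Uty at 6.24 and 6.02 were above the floor on both.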
